A study of Mus musculus with 6 samples.

Results

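The 10 genes described here carry iron into the cell, sense it, store it, release it and send it to the mitochondria or out of the cell. They are Tfrc, Slc11a2, Steap3, Aco1, Ireb2, Fth1, Ftl1, Ncoa4, Slc25a37 and Slc40a1, chosen by symbol from the 52550 genes of the count table, and 53 of its 131146 transcripts belong to them. RNA was sequenced from CD3+ T cells of the spleen of wild type (WT) mice after 24 h of culture with anti-CD3/CD28 activator, an antibody stimulus that engages the T cell receptor (TCR) and its costimulator. A control group (TCR alone, n = 3) received the activator and nothing else, and a second group (TCR+DMGV, n = 3) also received a small molecule at 100 ng/ml, which the sample labels name DMGV (dimethylguanidino valeric acid) and the study's text names LNY1, a preparation from conditioned medium that holds methylated arginines. Which of these was added cannot be told apart here, and the label's name is used. The samples of a group are labelled biological replicates, there are no unstimulated cells, and the cells are a mixture of T cell types isolated by a magnetic method. The study used young adult mice of both sexes, and the labels do not give the age, sex or strain behind each sample.

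The libraries held between 37758725 and 43718867 counts. The first principal component of log2 CPM (counts scaled to library size) took 32.2% of the variance and placed TCR alone replicate 3 (42.1) and TCR+DMGV replicate 1 (42.9) at one end, against -34.9 to -10.5 for the other 4 libraries. These 2 libraries stand apart from the rest, 1 in each group, and several fold changes are also given without them. They were picked from these same data. In edgeR, the test used below, 972 genes had an unadjusted p under 0.05 without them, against 471 with all 6 libraries. The T cell label was matched by its defining markers. Cd3e had 271 to 313 CPM and Lck, the T cell kinase, had a mean of 600 CPM, while the activation marker Il2ra, a chain of the interleukin-2 receptor, had 952 to 1102 CPM.

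Iron reaches a T cell bound to transferrin, which is taken up by the transferrin receptor, reduced in the endosome by a ferrireductase and carried to the cytosol by the divalent metal transporter. Activated T cells are known to raise the transferrin receptor, since dividing cells need iron for DNA synthesis and for respiration. Iron that is not used is held in ferritin shells of heavy and light chains. A pair of iron regulatory proteins, encoded by Aco1 and Ireb2, bind hairpins in messenger RNA called iron responsive elements when iron is scarce. A hairpin before the coding sequence is known to block translation when bound, as in the ferritins, and hairpins after it are known to protect the transcript from decay, as in the transferrin receptor.

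The hairpins are shown because they are the form of sequence that the iron regulatory proteins are known to bind. The search was for a C, any 5 bases, CAGTGN and 5 bases that pair with the first 5, with at most 1 unpaired base on the 3′ side, on the sense strand of GENCODE M21 transcripts (GRCm38). Of the 130634 transcripts of the table that were searched, 1.98% held a match, and 0.628% held one with no unpaired base. Of the 10 genes, 5 had a match in 1 or more transcripts, 9 transcripts in all. Each sequence below is written 5′ to 3′ as DNA, with the bulged C and the 6 bases of the loop in capitals. A match, called an element below, is a description of the letters and was not tested as a binding site. The search can miss hairpins of another form, so the number of elements in a transcript may not be complete.

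Fth1-201, 5′ untranslated region, chr19:9982733-9982759, plus strand: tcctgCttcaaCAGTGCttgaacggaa
Ftl1-201, 5′ untranslated region, chr7:45459780-45459806, minus strand: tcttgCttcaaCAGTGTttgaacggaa
Slc40a1-201, 5′ untranslated region, chr1:45925466-45925492, minus strand: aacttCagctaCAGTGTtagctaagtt
Slc11a2-205, 3′ untranslated region, chr15:100395153-100395180, minus strand: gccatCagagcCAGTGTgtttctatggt
Tfrc-201, element 1 of 4 in the 3′ untranslated region, chr16:32631220-32631246, plus strand: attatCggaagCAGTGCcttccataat
Tfrc-201, element 2, chr16:32631599-32631625, plus strand: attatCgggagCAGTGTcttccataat
Tfrc-201, element 3, chr16:32631664-32631690, plus strand: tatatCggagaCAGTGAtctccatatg
Tfrc-201, element 4, chr16:32631711-32631737, plus strand: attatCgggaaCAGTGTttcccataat

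The Fth1 and Ftl1 windows share the 5 pairs next to the loop and lie before the coding sequence, whereas the elements of Tfrc and Slc11a2 lie after it. The Slc11a2 element is the 1 of these 8 with an unpaired base. No match of this form was found in the transcripts of Steap3, Aco1, Ireb2, Ncoa4 or Slc25a37.

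Levels between genes were compared in FPKM, fragments scaled to the length of the gene and the depth of the library. The ferritin chains led, with a median of 282 FPKM for Fth1 and 226 for Ftl1 over the 6 libraries, and they ranked 142 and 186 by mean FPKM among the 22526 genes with a count. Fth1 lay above Ftl1 in FPKM per gene only. In FPKM per transcript the ranges overlapped, at 239 to 348 for Ftl1-201 and 265 to 306 for Fth1-201. In CPM, Ftl1 was higher than Fth1 in each library. Tfrc followed with a median of 56.1 FPKM and rank 987. Ncoa4 (14.7) and Aco1 (13.6) came next and their ranges overlapped, then Slc25a37 (7.33) and Ireb2 (6.64), whose ranges also overlapped. The Ireb2 range reached down into that of Slc11a2 (3.79), and Steap3 was lowest of the genes with counts (0.818). Slc40a1 was listed at 0 in all 6 libraries. All other neighbours in this order had ranges of FPKM per gene that did not meet.

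**Figure D1:**
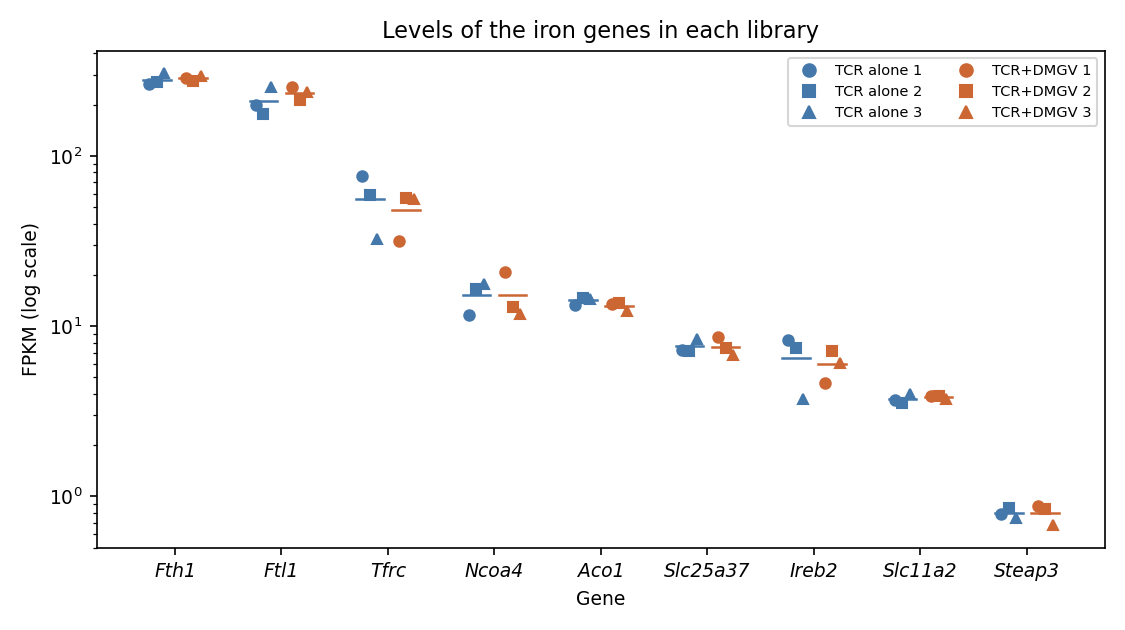
FPKM of 9 iron genes on a log axis, ordered by median, with 1 point per library and a line at each group's mean. Slc40a1, at 0 in all libraries, is not drawn. Fth1 and Ftl1 lie highest and Steap3 lowest, and Tfrc and Ireb2 are low in TCR alone replicate 3 and TCR+DMGV replicate 1.

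The comparison of TCR+DMGV with TCR alone asked whether the added agent changed these genes after 24 h. No member passed the test. Of 14786 genes tested with edgeR's quasi-likelihood test on the counts, 2 had an adjusted p under 0.05 (0.0135%), 471 had an unadjusted p under 0.05 (3.19%) and 1310 had groups whose CPM did not overlap (8.86%). Of the 10 members 9 were tested, with 0 called, 0 at an unadjusted p under 0.05 and 0 with groups that did not overlap. Slc40a1 did not pass the filter on low counts. The edgeR adjusted p was at least 0.999 for each of the 9. DESeq2 and limma, run on the same samples, also called 0 of them. Of the tested members 6 had a higher and 3 a lower estimate in TCR+DMGV, with a median log2 fold change of 0.0058, against 0.0024 over all genes tested. The median size of the change, without its sign, was 0.048 for the members and 0.12 for all genes. The members and all genes were not matched for level, and this difference was not tested.

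**Figure D2:**
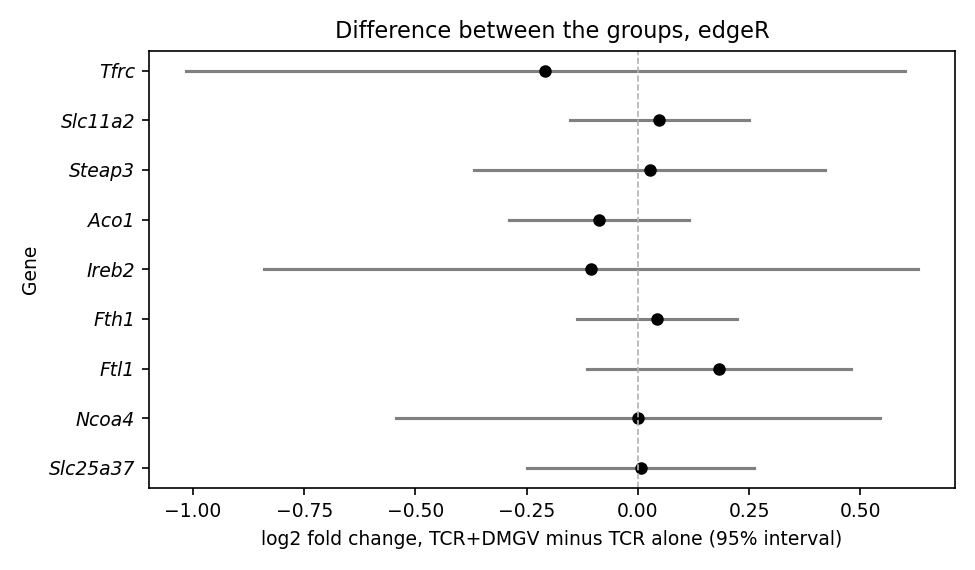
Log2 fold change of each tested iron gene, TCR+DMGV minus TCR alone, with its 95% interval from edgeR (n = 3 per group). Every interval covers 0, and those of Tfrc, Ireb2 and Ncoa4 are the widest.

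Tfrc (ENSMUSG00000022797.15, chr16:32608920-32632794, plus strand) encodes the transferrin receptor. Its level was 76.3, 59.3 and 32.7 FPKM in TCR alone replicates 1 to 3 and 31.8, 56.5 and 55.6 FPKM in TCR+DMGV replicates 1 to 3. The low libraries were the 2 that stand apart, and the groups overlapped. The log2 fold change was -0.21 ± 0.34 (SE, n = 3 per group), with a 95% interval from -1.02 to 0.60, so that a fall to 0.495 times or a rise to 1.52 times the control level was within the error. Without both libraries that stand apart it was -0.25 ± 0.12 (SE), with an edgeR adjusted p of 0.767. Without TCR alone replicate 1 it was 0.053 and without TCR+DMGV replicate 1 it was 0.027, so the direction turned on single libraries.

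Slc11a2 (ENSMUSG00000023030.16, chr15:100387898-100425072, minus strand) encodes the divalent metal transporter DMT1. It was steady, at 3.68, 3.56 and 4.01 FPKM in TCR alone and 3.91, 3.87 and 3.71 FPKM in TCR+DMGV. Its log2 fold change was 0.048 ± 0.085 (SE), with an interval from -0.15 to 0.25. Steap3 (ENSMUSG00000026389.16, chr1:120190757-120272705, minus strand), the endosomal ferrireductase, had 177 to 249 counts per library. Its level was 0.787, 0.857 and 0.745 FPKM in TCR alone and 0.884, 0.849 and 0.677 FPKM in TCR+DMGV. The groups of both genes overlapped, and the Steap3 log2 fold change was 0.027 ± 0.17 (SE).

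Aco1 (ENSMUSG00000028405.9, chr4:40143081-40198338, plus strand) encodes iron regulatory protein 1, which serves as a cytosolic aconitase when it holds an iron-sulfur cluster. It had 13.4, 14.7 and 14.4 FPKM in TCR alone and 13.5, 13.8 and 12.3 FPKM in TCR+DMGV. The log2 fold change was -0.088 ± 0.086 (SE), with an interval from -0.29 to 0.12. Ireb2 (ENSMUSG00000032293.8, chr9:54863789-54912530, plus strand) encodes iron regulatory protein 2, which is known to be degraded when iron is plentiful. It had 8.34, 7.41 and 3.72 FPKM in TCR alone and 4.64, 7.19 and 6.09 FPKM in TCR+DMGV. Like Tfrc, it was low in the 2 libraries that stand apart. Its log2 fold change was -0.10 ± 0.31 (SE), and -0.22 ± 0.12 (SE) without those libraries. It was -0.39 without TCR alone replicate 3 and turned to 0.093, 0.018 and 0.061 without TCR alone replicate 1, TCR alone replicate 2 and TCR+DMGV replicate 1. The ratio of Aco1 to Ireb2 in FPKM was 3.88 and 2.91 in those libraries and 1.61 to 2.02 in the other 4.

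Fth1 (ENSMUSG00000024661.6, chr19:9980598-9985098, plus strand) encodes the ferritin heavy chain, which oxidises iron as it enters the shell. It had 265, 270 and 306 FPKM in TCR alone and 288, 275 and 294 FPKM in TCR+DMGV. This was the tightest of the log2 fold changes, 0.044 ± 0.077 (SE), with an interval from -0.14 to 0.22, and it was 0.11 ± 0.083 (SE) without both libraries that stand apart. Ftl1 (ENSMUSG00000050708.16, chr7:45457944-45459884, minus strand) encodes the ferritin light chain, which helps the iron core to form. It had 200, 177 and 253 FPKM in TCR alone and 255, 214 and 237 FPKM in TCR+DMGV. The lowest values were the first 2 of TCR alone, and the groups overlapped through replicate 3. Its log2 fold change of 0.18 ± 0.13 (SE) was the largest rise in estimate among the members, with an unadjusted edgeR p of 0.19 and an adjusted p of 0.999. With single libraries left out it was lowest without TCR alone replicate 2, at 0.084 (edgeR unadjusted p = 0.53). It was highest without TCR alone replicate 3, at 0.33 (edgeR unadjusted p = 0.011, adjusted p = 0.649). Without both libraries that stand apart it was 0.28 (edgeR unadjusted p = 0.0236, adjusted p = 0.733). Over all genes, an unadjusted p under 0.05 was more common in these fits. It was found for 1109 genes without TCR alone replicate 3 and 972 without both libraries, against 471 with all libraries.

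Ftl1 shares its locus and its sequence with other annotated genes. Gm10252, annotated on the other strand across it, had 4660 to 7535 counts, a sum equal to 45.7% of the Ftl1 counts. Gm22133, a miRNA gene on the same strand, had 1552 to 2123 counts. The sources used here do not state whether counting used the strand, so reads of Ftl1 and of these genes cannot be told apart. Of 15 annotated relatives and copies of the ferritin genes 4 had a count. Ftl1-ps1 had the most, 67 to 200 counts per library, which came to 0.79% of the Ftl1 sum, and Fth-ps2, the most abundant copy of Fth1, had at most 4. No other member overlapped a gene with more than 120 counts in a library, the level of Gm31748 across Slc25a37.

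Ncoa4 (ENSMUSG00000056234.14, chr14:32159865-32179855, plus strand) encodes the receptor that delivers ferritin to the lysosome so that its iron is released. It had 11.7, 16.4 and 17.6 FPKM in TCR alone and 20.7, 12.9 and 11.8 FPKM in TCR+DMGV. The group means were 15.2 ± 3.12 and 15.2 ± 4.86 FPKM (SD, n = 3), and the log2 fold change was 0.00014 ± 0.23 (SE). The highest libraries were the 2 that stand apart, where Tfrc was lowest. With single libraries left out the log2 fold change ran from -0.27 (without TCR+DMGV replicate 1) to 0.14 (without TCR+DMGV replicate 3), and it was -0.17 without both libraries that stand apart.

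Slc25a37 (ENSMUSG00000034248.7, chr14:69241848-69285112, minus strand) encodes mitoferrin 1, an iron importer of the inner mitochondrial membrane. It had 7.26, 7.17 and 8.42 FPKM in TCR alone and 8.59, 7.40 and 6.73 FPKM in TCR+DMGV. The groups overlapped, and the log2 fold change was 0.0058 ± 0.11 (SE). Slc40a1 encodes ferroportin, the iron exporter, which macrophages that recycle red cells are known to express. It had 0 counts in all 6 libraries, which allows up to 3 counts in each, or 0.0674 to 0.079 CPM, for counting error only. No fold was computed for it.

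The log2 ratio of Tfrc to Fth1 counts sets RNA of an uptake gene against RNA of a storage gene within a library. It does not measure iron uptake or storage. The most abundant transcripts of these genes hold 39.8% and 53.4% G and C, and the ratio was not corrected for this. It was 1.04, 0.65 and -0.39 in TCR alone and -0.34, 0.55 and 0.43 in TCR+DMGV. Group means were 0.43 ± 0.74 and 0.22 ± 0.48 (SD, n = 3), a difference of -0.22, with no test. It ran from -0.63 to 0.085 when single libraries were left out. Without both libraries that stand apart the means were 0.84 ± 0.28 and 0.49 ± 0.085 (SD, n = 2), a difference of -0.35. The ratio was below 0 in the 2 libraries that stand apart and above 0 in the other 4. Ftl1 in FPKM per gene was 0.655 to 0.885 times Fth1 across the 6 libraries. In FPKM per transcript, Ftl1-201 was higher than Fth1-201 in every library but TCR alone replicate 2.

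Tfrc and Ireb2, low in the 2 libraries that stand apart, are also poor in G and C. Their most abundant transcripts hold 39.8% and 39.0% G and C, and 4.36% and 2.94% of the genes tested had less. Among the fifth of genes with the least G and C, the median deviation from the 6-library mean was -0.29 in TCR alone replicate 3 and -0.21 in TCR+DMGV replicate 1 on the log2 scale, against 0.083 to 0.24 in the other 4 libraries. Tfrc lay 0.98 lower in the 2 libraries than in the other 4 on that scale, and 5.00% of all genes lay at least as low. Ireb2 lay 0.84 lower and 6.47% of genes lay at least as low.

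After the trend with G and C content was removed from each library, the Tfrc difference between the 2 libraries and the rest was -0.34 and the Ireb2 difference was -0.13. Ncoa4, at 43.8% G and C, lay 0.50 higher in the 2 libraries as counted and 0.73 higher with the trend removed. The log2 fold change between groups became -0.092 ± 0.14 (SE) for Tfrc and 0.044 ± 0.10 (SE) for Ireb2, each with an edgeR adjusted p of 0.999 or more. This correction was added after the data were seen, and its trend was fitted on the same 6 libraries. The cause of the low Tfrc and Ireb2 in the 2 libraries was not tested. An effect of base composition and a difference between the cells of these libraries cannot be told apart.

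**Figure D3:**
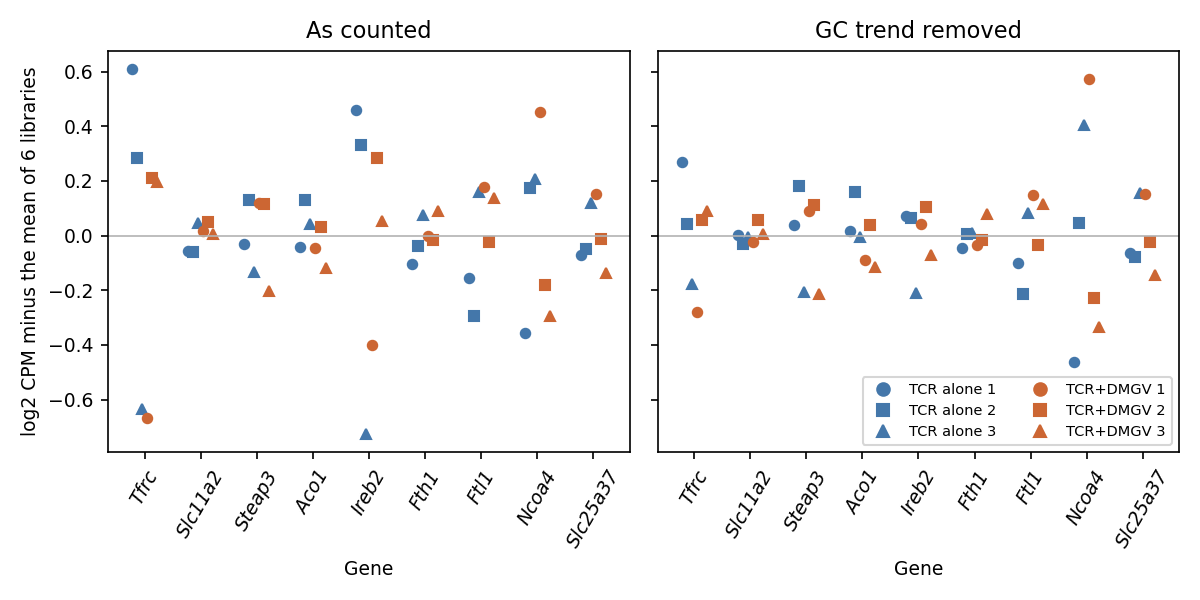
Log2 CPM of each tested iron gene minus its mean over the 6 libraries, as counted (left) and with the trend with G and C content removed (right), 1 point per library. Tfrc and Ireb2 deviate by up to 0.73 on the left and by at most 0.28 on the right, while Ncoa4 spreads at least as far on the right.

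At the level of transcripts, 39 of the 53 had a count and 24 were tested. Of 38401 transcripts tested over the whole table with edgeR, 0 had an adjusted p under 0.05 (0%) and 1235 had an unadjusted p under 0.05 (3.22%). By other tools 387 (DESeq2) and 4 (limma) passed over the whole table. None of the 24 passed in any of these fits, and in edgeR 0 had an unadjusted p under 0.05, the smallest being 0.12 for Ncoa4-202. How the authors split reads among transcripts adds an error that these counts do not show.

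Of Tfrc counts, 90.4% were in Tfrc-201, which carries the 4 elements. Tfrc-202, a shorter coding transcript with no element, took 2.51%, 7.98% and 1.60% in TCR alone and 12.8%, 1.76% and 13.4% in TCR+DMGV. The share was high in TCR+DMGV replicates 1 and 3 and low in replicate 2, so the groups overlapped. Aco1-201, Ireb2-201, Fth1-201 and Ftl1-201 held 99.7%, 99.5%, 100% and 98.3% of their genes' counts.

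Slc11a2 counts fell on a transcript without an element, Slc11a2-201 (67.2% of the sum), and on Slc11a2-205 (31.0%), which has the element shown above. The share of the transcript with the element was 37.6%, 28.8% and 45.7% in TCR alone and 22.1%, 16.1% and 37.98% in TCR+DMGV. Means were 37.4% ± 8.48 and 25.4% ± 11.3 (SD, n = 3). The difference was -11.95 percentage points (two-sided exact permutation test, p = 0.3), and with 3 against 3 this test cannot go below 0.1, so it could not have passed 0.05. The difference ran from -18.2 (without TCR+DMGV replicate 3) to -7.31 (without TCR+DMGV replicate 2) and was -6.12 without both libraries that stand apart. The lowest 2 shares were TCR+DMGV replicates 2 and 1, and TCR+DMGV replicate 3 lay inside the control range.

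Ncoa4-201 held 77.7% of Ncoa4 counts, with 74.9%, 87.5% and 89.1% in TCR alone and 90.0%, 52.9% and 55.0% in TCR+DMGV. Its log2 fold change was -0.28 ± 0.48 (SE). Among the controls Ncoa4-202 was at 1.81, 1.46 and 0.882 FPKM, against 0.857, 4.31 and 4.504 FPKM with DMGV, a log2 fold change of 1.24 ± 0.68 (SE, edgeR adjusted p above 0.999). Replicates 2 and 3 of TCR+DMGV lay above all controls and replicate 1 lay below them. Without both libraries that stand apart, a fit added after the data were seen, the Ncoa4-202 log2 fold change was 1.44 ± 0.23 (SE, edgeR unadjusted p = 0.00496, adjusted p = 0.525), and 0 transcripts of the whole table passed. In that fit Ncoa4-201 went the other way, at -0.79 ± 0.31 (SE, edgeR unadjusted p = 0.075, adjusted p above 0.999). Steap3-202 held 78.9% of Steap3 counts but had 0 in TCR alone replicate 3, where Steap3-203 held all 194. Slc25a37-203, annotated as a retained intron, held 55.2% of that gene's counts and the coding Slc25a37-201 held 39.6%. Their log2 fold changes were 0.14 ± 0.16 and -0.27 ± 0.34 (SE).

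**Figure D4:**
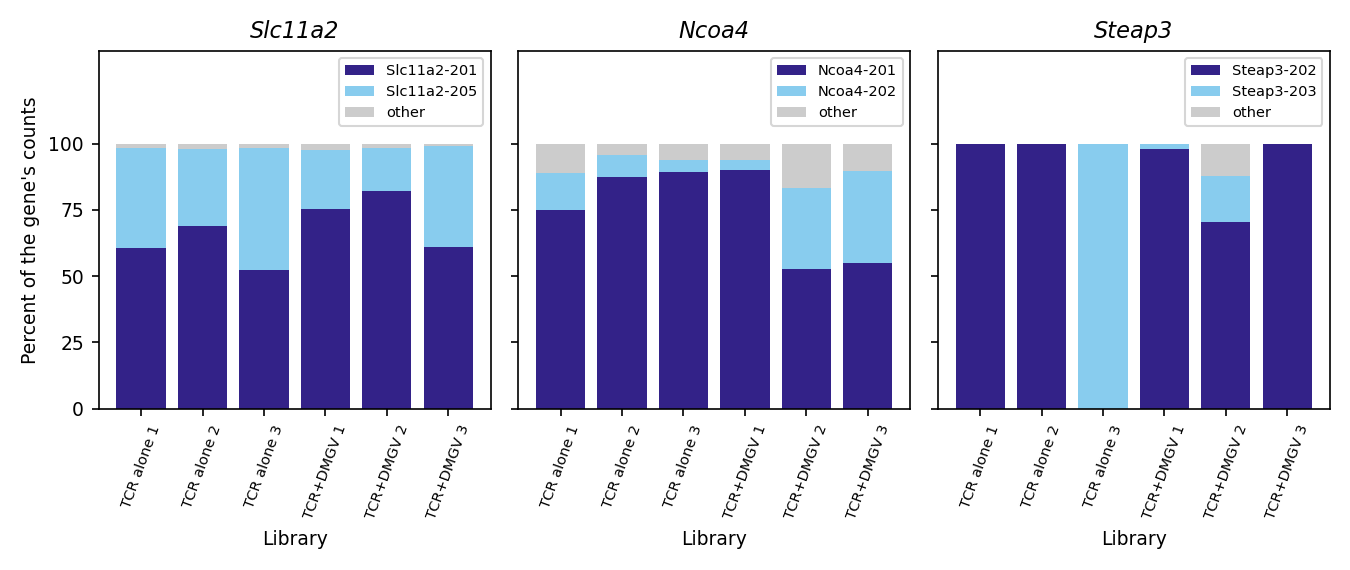
Percent of each gene's counts in its 2 named transcripts and in the others, for Slc11a2, Ncoa4 and Steap3 in each of the 6 libraries. Slc11a2-205 runs from 16.1% to 45.7%, Ncoa4-202 is high in TCR+DMGV replicates 2 and 3, and Steap3-203 takes all counts in TCR alone replicate 3.

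The other genes of iron handling were taken from 6 lists of 102 genes, of which 80 were tested and 0 passed (smallest edgeR adjusted p = 0.999). Estimates were higher in TCR+DMGV for 48 and lower for 32, with a median log2 fold change of 0.029, and 50.6% of all genes tested were higher. An unadjusted edgeR p under 0.05 was found for 3 of the 80 (3.75%, against 3.19% of all genes), and 9 had groups that did not overlap (11.2%, against 8.86%).

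Among other genes of uptake, reduction and export, 7 of 22 were tested, 4 with a higher and 3 with a lower estimate. Snx3, a sorting nexin that helps the transferrin receptor to recycle, was the most abundant at 122 FPKM (log2 fold change 0.21 ± 0.13, SE, and 0.11 without both libraries that stand apart). Lrp1, an endocytic receptor, was low, at a mean of 0.727 CPM. Its groups did not overlap, and its log2 fold change was 0.67 ± 0.37 (SE, edgeR unadjusted p = 0.11, adjusted p = 0.999). Without both libraries that stand apart it was 0.71 ± 0.56 (SE). Among other genes that control iron 12 of 15 were tested, 6 in each direction. Hif1a, the oxygen-regulated transcription factor, led with 77.7 FPKM (-0.21 ± 0.24, SE), and without both libraries that stand apart it was at -0.34 ± 0.074 (SE, edgeR unadjusted p = 0.003, adjusted p = 0.609). Zc3h12a, an RNase known to cut Tfrc transcripts, was at 18.5 ± 1.38 CPM in TCR alone and 20.8 ± 0.797 in TCR+DMGV (SD, n = 3). Glrx3, a glutaredoxin, had a log2 fold change of 0.13 ± 0.11 (SE) that did not pass the test.

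Among other genes of storage, chaperoning and release 9 of 11 were tested, 6 with a higher estimate. Pcbp1, which hands iron to ferritin, was the most abundant at 399 FPKM with a log2 fold change of 0.057 ± 0.068 (SE), and Pcbp4 was at 0.14 ± 0.14 (SE). Ftmt, the mitochondrial ferritin, was at 0 in all libraries. All 26 genes of mitochondrial iron and iron-sulfur cluster assembly were tested, 18 with a higher estimate. Hspa9, the mitochondrial chaperone, led at 261 FPKM with a log2 fold change of 0.0014 ± 0.072 (SE).

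Isca1, which helps to build mitochondrial iron-sulfur clusters, was at 63.7, 32.0 and 36.4 CPM in TCR alone and 70.9, 75.1 and 69.0 CPM in TCR+DMGV. The groups did not overlap, and its log2 fold change was 0.70 ± 0.25 (SE, edgeR unadjusted p = 0.024, adjusted p = 0.999). Without both libraries that stand apart it was 0.59 ± 0.29 (SE, edgeR unadjusted p = 0.0874, adjusted p = 0.775). Cisd3, a mitochondrial iron-sulfur protein, was at 0.42 ± 0.17 (SE, edgeR unadjusted p = 0.04, adjusted p = 0.999) with groups that overlapped. All 9 genes of cytosolic iron-sulfur assembly were tested, 7 with a higher estimate. Nubp2, a scaffold protein, led at 64.9 FPKM (log2 fold change 0.14, and 0.28 without both libraries that stand apart), and Ciao1 and Ciao2b, of the targeting complex, were at 0.21 ± 0.098 and 0.32 ± 0.14 (SE).

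Of 19 genes of heme synthesis and transport 17 were tested, 7 with a higher and 10 with a lower estimate. Flvcr1, a transporter known for heme export and choline import, was at 36.7, 40.6 and 54.7 CPM in TCR alone and 56.5, 77.0 and 68.8 CPM in TCR+DMGV. The groups did not overlap, by a narrow margin between TCR alone replicate 3 and TCR+DMGV replicate 1, and the log2 fold change was 0.62 ± 0.18 (SE, edgeR unadjusted p = 0.01, adjusted p = 0.999). Without both libraries that stand apart it was 0.92 ± 0.11 (SE, edgeR unadjusted p = 0.00014, adjusted p = 0.104). Urod, an enzyme of heme synthesis, was at -0.13 ± 0.11 (SE), and Tmem14c, which moves a heme precursor into mitochondria, led at 52.7 FPKM.

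Markers of other cells that handle iron were low. In these bulk samples fewer cells of a type and less RNA per cell cannot be told apart. Of 16 macrophage markers 9 had a count and 2 were tested, and the list summed to 8.82 to 12.03 CPM per library. Csf1r, the most abundant, had 6.91 to 8.67 CPM, Adgre1 had a mean of 0.0204 CPM, and C1qc, Spic, Cd163, Marco, Mertk, Cd14 and Mrc1 were at 0. Of 13 erythroid markers matched, 10 had a count and 6 were tested, 2 with a higher and 4 with a lower estimate, and the list summed to 3.50 to 6.17 CPM. Hbb-bs led with a mean of 1.22 CPM, and Slc4a1 and Epb42 were at 0. Hba-a1 and Hba-a2, near-identical globin genes, were at 1.12 ± 0.105 and 1.09 ± 0.179 CPM in TCR alone and 0.486 ± 0.367 and 0.473 ± 0.246 CPM in TCR+DMGV (SD, n = 3). Their groups did not overlap, with edgeR unadjusted p values of 0.060 and 0.031 and adjusted p values of 0.999. Hbb-bt was at 0.684 CPM in TCR alone and 0.748 in TCR+DMGV, and Epor, the erythropoietin receptor, at 0.487 and 0.636 CPM, with groups that overlapped.

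No gene of the remaining marker lists passed the edgeR threshold. T cell markers (14 of 14 tested, 13 with a higher estimate in TCR+DMGV, median log2 fold change 0.11) summed to 4295 to 4885 CPM, and Cd3d was at 0.23 ± 0.10 (SE). Activation markers (10 of 10, 7 higher, median 0.092) summed to 3211 to 3545 CPM, and Cd69 was at -0.020 ± 0.18 (SE). Nr4a1 had the smallest p of that list, with groups that did not overlap. Its log2 fold change was 0.32 ± 0.095 (SE, edgeR unadjusted p = 0.012, adjusted p = 0.999). Without both libraries that stand apart it was 0.33 ± 0.077 (SE, edgeR unadjusted p = 0.0048, adjusted p = 0.667). B cell markers (10 of 10 with a count, 7 tested, 2 higher and 5 lower) summed to 247 to 272 CPM, nearly all from Ighm (mean 243 CPM), with Cd79a at a mean of 0.173 CPM. Blk, a B cell kinase at a mean of 0.289 CPM, had the smallest p of that list (edgeR unadjusted p = 0.0217, adjusted p = 0.999, lower in TCR+DMGV). NK cell markers (8 of 8 with a count, 6 tested, 5 higher and 1 lower, median 0.32) summed to 59.4 to 81.0 CPM, mostly from Eomes (mean 61.8 CPM), which T cells also express, with Ncr1 and Klrb1c at 0.356 and 0.62 CPM. Klre1, an NK cell receptor at a mean of 0.679 CPM, had an edgeR unadjusted p of 0.0383 (adjusted p = 0.999), higher in TCR+DMGV with groups that did not overlap. Dendritic cell markers (5 of 8 with a count, Clec9a, Siglech and Cd209a at 0) summed to 10.6 to 14.5 CPM (H2-Aa led at 4.55, Flt3 at 0.197 and Itgax at 3.88). Platelet markers (5 of 6 with a count, Treml1 at 0) summed to 1.05 to 1.56 CPM. In CPM Itga2b led at 0.837, with Pf4 at 0.146 and Ppbp at 0.0830, while in FPKM Pf4 (0.156) lay above Itga2b (0.131). The part of these cell types in the levels of the iron genes was not tested.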

How the data were processed

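Whole-number counts per gene and transcript, and FPKM values, were used as the authors deposited them for 6 libraries (37758725 to 43718867 counts). Per the labels, a VAHTS mRNA kit was used. The submitters' processing notes list HISAT2 2.0.4 and the build mm9, while 99.7% of the deposited gene identifiers, without version, matched GENCODE M21 (GRCm38), from which symbols, coordinates and sequences were taken. Per the study's methods, expression was calculated with StringTie. How whole-number counts were derived from it, and whether by strand, is not given in the sources used here.

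Counts were tested with edgeR 4.0.16 (R 4.3.3), by the quasi-likelihood test with TMM normalization and filterByExpr, Benjamini-Hochberg adjusted over all genes, with a threshold of 0.05. SE and 95% intervals come from that fit. CPM uses TMM library sizes. Principal components used log2 CPM with a prior count of 2. Intervals and floors cover counting error or the spread among samples only. Fits were tested on simulated data. Alternatives were DESeq2 1.42.0, limma 3.58.1 on log2(FPKM + 1) for genes of mean FPKM at least 1 and on log2(FPKM + 0.1) for at least 0.1, other size factors, no filter, summed transcript counts, a replicate block, leaving out libraries and removal of the trend with G and C content (loess, span 0.3, set on genes above a mean log2 CPM of 3). No pair of libraries was as alike as sampling noise (median chi-square per gene 3.89 to 8.93, against 0.455).

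All 10 members were named, with transcripts holding at least 10% of a gene's counts. From each wider list the 2 genes of smallest p, any past the threshold and the most abundant in FPKM were named. From each marker list the first 2 and the most abundant in CPM were named. Some markers are not reported here by name. Gm22133, Gm31748, Tfrc-202, Ftmt, Hbb-bt, Epor, Nr4a1, Blk, Klre1 and markers at 0 were named after their values were seen. The members and lists were chosen with earlier results of these data known.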

Additional observations from a re-analysis of the deposited data

How the results depend on the processing

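No iron gene, iron transcript or gene of the wider lists passed the threshold under any alternative run. Over all genes, where 2 passed, the count was 14 with DESeq2, 1 with library size alone, with all genes with a count and with the G and C trend removed, 0 with limma at either pseudocount, 12 without both libraries that stand apart, and 0 to 5 when single libraries were left out. Genes at an unadjusted p under 0.05 numbered 972 without both libraries and 368 to 1109 without single libraries (1109 without TCR alone replicate 3), against 471. Transcripts past the threshold numbered 387 with DESeq2, 4 with limma and 0 to 1 without single libraries, against 0. The cause of these shifts was not tested. The median log2 fold change of the tested iron genes was -0.085 without both libraries and -0.0014 to 0.074 without single ones. The Tfrc to Fth1 difference in log2 ratio ran from -0.63 to 0.085 without single libraries and was -0.35 without both. The difference in the Slc11a2 share ran from -18.2 to -7.31 percentage points without single libraries, and was -6.12 without both and -8.82 in FPKM. The stricter hairpin, with no unpaired base, gave no value for Slc11a2 because its element has 1.

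Of 143 fold changes of the members under 16 alternatives, 31 changed sign and 0 passed the threshold (smallest adjusted p 0.649). Over all fits with a single library left out, the members that changed sign in at least 1 fit ran from -0.48 to 0.053 for Tfrc, -0.030 to 0.13 for Steap3, -0.39 to 0.093 for Ireb2, -0.014 to 0.10 for Fth1, -0.27 to 0.14 for Ncoa4 and -0.077 to 0.074 for Slc25a37. Those with no change of sign ran from 0.015 to 0.089 for Slc11a2, -0.15 to -0.047 for Aco1 and 0.084 to 0.33 for Ftl1. Without both libraries, Steap3 was -0.085, Ncoa4 -0.17 and Slc25a37 -0.0091. With the G and C trend removed, Steap3 was -0.0091, Ireb2 0.044 and Slc25a37 -0.0064. Ncoa4 was -0.0032 with DESeq2, -0.0044 with DESeq2-style size factors, -0.0073 with library size alone, and -0.029 and -0.032 with limma at pseudocounts of 1 and 0.1. Slc25a37 was -0.00015, -0.0071, -0.010 and -0.012 with DESeq2-style size factors, library size alone and limma at pseudocounts of 1 and 0.1.

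Deviations of same-numbered libraries correlated at -0.15, 0.12 and -0.15 across genes, not above 0.1 in every pair, and the main fit did not pair the samples. The 2 libraries that stand apart have different numbers and correlated at 0.31 with each other. These values therefore cannot decide whether the numbers pair the samples. With the replicate block 0 genes passed over all genes, Ncoa4 was -0.022, and no call on an iron gene changed.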
